A study of Homo sapiens with 6 samples.

Results

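BCL2 family genes encode the proteins that decide whether the outer mitochondrial membrane stays intact during apoptosis, and 10 of them were followed here across Huh7 cells, a human hepatocellular carcinoma line. The members were taken by name from their Ensembl IDs: 2 anti-apoptotic genes (BCL2L1 and MCL1), 3 effector genes (BAX, BAK1 and BOK) and 5 BH3-only genes (BID, BAD, BCL2L11, BBC3 and PMAIP1). The list was chosen with earlier results of these data known. All 10 were found among the 57905 gene IDs of the deposited table. Huh7 cells transfected with siRNA against ASGR1 (siASGR1, 3 libraries) were set against Huh7 cells transfected with scrambled siRNA (siControl, 3 libraries). Both groups were transfected cultures of 1 cell line, grown in DMEM with serum and harvested 72 h after transfection, with no untransfected group. The labels say neither how many siRNAs were used per target nor whether libraries came from separate cultures. The spread behind each p-value is therefore that of 3 libraries per group and may be technical.

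In the mitochondrial pathway of apoptosis, the effectors BAX and BAK1 form pores in the outer mitochondrial membrane and release cytochrome c, which assembles the apoptosome and activates caspases. Anti-apoptotic members such as BCL-XL (from BCL2L1) and MCL1 bind effectors and BH3-only proteins and hold them in check. BH3-only proteins carry stress signals: they occupy the groove of the anti-apoptotic members through their BH3 helix or activate the effectors directly. In hepatocytes BCL-XL and MCL1 are the main survival members, and mice lacking either in hepatocytes show spontaneous liver cell apoptosis.

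The BH3 core is the feature that all 10 genes share, and its coding bases are shown for 6 genes that the results turn on. Each stretch is 39 bases of coding sequence, 5′ to 3′, from the principal transcript in GENCODE release 29 (GRCh38). Capitals mark the codon of the conserved leucine and, after 3 codons in lower case, the codons of the small residue and the conserved aspartate.
BCL2L1 (chr20:31721925-31721963, minus strand): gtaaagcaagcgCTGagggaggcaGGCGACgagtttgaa
MCL1 (chr1:150578868-150578906, minus strand): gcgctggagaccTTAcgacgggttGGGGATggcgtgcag
BAX (chr19:48955775-48955813, plus strand): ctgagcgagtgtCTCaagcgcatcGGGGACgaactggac
BAK1 (chr6:33575390-33575428, minus strand): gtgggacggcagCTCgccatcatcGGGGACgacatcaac
BBC3 (chr19:47226582-47226620, minus strand): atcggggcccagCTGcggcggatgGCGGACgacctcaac
PMAIP1 (chr18:59902661-59902699, plus strand): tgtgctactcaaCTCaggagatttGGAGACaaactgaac
All 6 stretches lie in coding exons and none spans an intron. Gene-level values cannot tell isoforms with the core from those without it. The core was present in frame in 11 of 22 complete coding transcripts of BCL2L11, 4 of 11 of BID, 5 of 8 of BAX, 2 of 4 of BAD, 2 of 4 of BBC3 and 1 of 2 of PMAIP1, and in all annotated ones of BCL2L1, MCL1, BAK1 and BOK.

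Values are the authors' FPKM (fragments per kilobase, corrected for sequencing depth), and depths recovered from them were 18481000 to 19257000 fragments in siASGR1 and 16326000 to 19333000 in siControl. The siRNA target itself was inconsistent between deposited sources. ASGR1 was 4.60, 4.82 and 4.71 FPKM in siASGR1 in the table of the whole series but 14.65, 15.81 and 14.04 in the libraries' own files, against 17.3 ± 0.38 in siControl in both (SD, n = 3). No other gene differed between the sources. From the table of the whole series the log2 fold change was -1.68 (limma adjusted p = 1.75e-06), and -1.55 after median-of-ratios scaling (adjusted p = 1.9e-06). From the own files it was -0.21 (limma adjusted p = 0.00954), and -0.07 after median-of-ratios scaling (adjusted p = 0.327). The degree of knockdown behind every result below is therefore uncertain. Hepatocyte markers were present: all 9 were called higher in siASGR1, with a summed level of 7311 to 7600 FPKM in siASGR1 and 3770 to 3885 FPKM in siControl. Fibroblast markers were low and lower in siASGR1 (summed FPKM of 7 genes 0.64 to 0.88 in siASGR1 and 5.55 to 6.72 in siControl; 2 of 7, COL1A1 and COL1A2, passed the filter, only through siControl, so that their lower calls were fixed by the filter), and none of the 7 was at 0 in every library. Of 4 endothelial markers, KDR was listed at 0 in every library, PECAM1 was not matched, and the summed level was at most 0.21 FPKM in siASGR1 and 0.14 FPKM in siControl. The 5 blood cell markers summed to at most 0.45 FPKM in siASGR1 and 1.17 FPKM in siControl. The part of these markers in the results below was not tested, and in bulk RNA fewer cells of a type and less RNA per cell cannot be told apart.

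The members spanned a wide range of levels. FPKM is per length, which lets genes be compared roughly. The annotation behind the lengths is not stated in the sources used here, and overlapping genes may share reads. BCL2L1 and MCL1 stood at the top in both groups. In siASGR1 BCL2L1 averaged 47.9 ± 0.84 FPKM and MCL1 47.2 ± 0.72 FPKM, and the ranges of these neighbours overlapped. In siControl BCL2L1 averaged 59.7 ± 1.2 FPKM and MCL1 48.3 ± 2.2 FPKM, with no overlap (SD, n = 3 throughout). The effectors BAK1 and BAX came next. Their ranges overlapped in siASGR1 (24.8 ± 1.6 and 24.2 ± 2.0 FPKM), whereas in siControl BAK1 at 35.0 ± 1.6 FPKM lay above BAX at 23.6 ± 0.87 FPKM. BID and BAD followed with overlapping ranges in both groups, and then BBC3 and BCL2L11, again overlapping in both. At the bottom the order differed: in siASGR1 BOK (1.83 ± 0.55 FPKM) and PMAIP1 (1.72 ± 0.35 FPKM) overlapped, whereas in siControl PMAIP1 (3.72 ± 0.46 FPKM) overlapped BCL2L11 and lay above BOK (2.07 ± 0.15 FPKM).

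**Figure D1:**
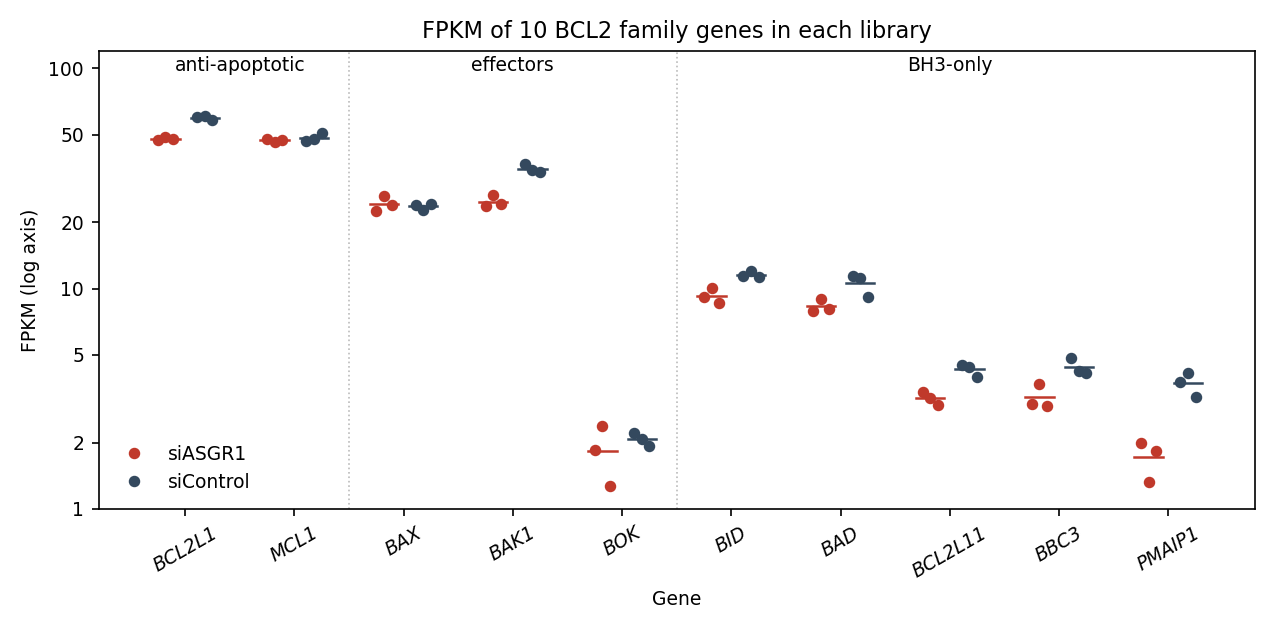
FPKM of each member on a log axis in 3 siASGR1 libraries (red, left) and 3 siControl libraries (dark, right); each point is a library and each line a group mean. The groups are separate for BCL2L1, BAK1 and the 5 BH3-only genes and overlap for MCL1, BAX and BOK.

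Most members were lower after siASGR1. By limma on log2(FPKM + 1), with Benjamini-Hochberg adjustment over 13568 tested genes and calls at an adjusted p under 0.05, 7 of 10 members were called lower and 0 higher. Among all tested genes 61.3% were called, 40.4% lower and 20.9% higher. The 10 members, all of which passed the filter of at least 1 FPKM in at least 3 libraries, had a median log2 fold change of -0.31, and all tested genes had a median of -0.13. The groups did not overlap for 7 members, all lower in siASGR1, as they did not for 67.3% of all tested genes (43.8% lower). Median-of-ratios scaling, which divides each library by its typical ratio to the average library, raised the median of all genes by 0.13. On that scale 4 members were called lower (BCL2L1, BAK1, BCL2L11 and PMAIP1) and 1 higher (MCL1), against 58.8% called among all genes, 28.9% lower and 29.9% higher.

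Of the anti-apoptotic pair, BCL2L1 fell and MCL1 did not pass the test. BCL2L1 (ENSG00000171552; GRCh38 chromosome 20, 31664452 to 31723989, minus strand) encodes BCL-XL, and its short splice form has the opposite activity, which gene-level FPKM cannot show. It had 47.3, 48.8 and 47.5 FPKM in siASGR1, against 60.4, 60.4 and 58.3 FPKM in siControl. Every siASGR1 library lay below every siControl library, at 80.3% of the siControl mean (log2 fold change -0.31, SE 0.04, adjusted p = 0.000261). MCL1 (ENSG00000143384; chromosome 1, 150574551 to 150579738, minus strand) encodes a short-lived survival protein that is turned over by the proteasome. It had 47.9, 46.5 and 47.4 FPKM in siASGR1, against 46.7, 47.6 and 50.8 FPKM in siControl. The groups overlapped (log2 fold change -0.03, 95% interval -0.13 to 0.07, adjusted p = 0.545). The sign of this difference turned with median-of-ratios scaling, where MCL1 was called higher (0.12, adjusted p = 0.0386), and with upper-quartile scaling (0.04, adjusted p = 0.408). It also turned when siControl replicate 3 was left out (0.003, adjusted p = 0.94).

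Among the effectors, BAK1 fell and neither BAX nor BOK passed the test. BAK1 (ENSG00000030110; chromosome 6, 33572547 to 33580293, minus strand), which sits constitutively in the outer mitochondrial membrane, had 23.7, 26.6 and 24.1 FPKM in siASGR1, against 36.8, 34.5 and 33.8 FPKM in siControl. The groups were well apart, with the siASGR1 mean at 70.8% of siControl (log2 fold change -0.48, SE 0.06, adjusted p = 0.0003). Its pseudogene copies took little signal: BAK1P1 was at most 0.35 FPKM in any library and BAK1P2 was listed at 0. BAX (ENSG00000087088; chromosome 19, 48954815 to 48961798, plus strand), which moves from the cytosol to mitochondria when activated, had 22.5, 26.3 and 23.9 FPKM in siASGR1, against 23.9, 22.6 and 24.3 FPKM in siControl. Here the siASGR1 libraries spanned the siControl range on both sides. The log2 fold change was 0.03 (95% interval -0.12 to 0.18, adjusted p = 0.669), 0.18 with median-of-ratios scaling (adjusted p = 0.0501). It was -0.03 when siASGR1 replicate 2 was left out (adjusted p = 0.687). BOK (ENSG00000176720; chromosome 2, 241551424 to 241574138, plus strand), an effector relative controlled by protein degradation, had 1.86, 2.37 and 1.27 FPKM in siASGR1, against 2.21, 2.07 and 1.92 FPKM in siControl. It rested on 66 to 119 rebuilt reads in siASGR1 and 85 to 116 in siControl, and its groups overlapped. Its log2 fold change was -0.13 (95% interval -0.47 to 0.21, adjusted p = 0.456), 0.07 with quantile normalization (adjusted p = 0.703). Leaving out siASGR1 replicate 3 gave 0.02 (adjusted p = 0.896).

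All 5 BH3-only genes were called lower with values as deposited, with log2 fold changes from -0.80 to -0.30 (median -0.34). With median-of-ratios scaling 2 of 5 were called lower (PMAIP1 and BCL2L11) and the median was -0.22. Among all tested genes 40.4% were called lower as deposited and 28.9% with median-of-ratios scaling. PMAIP1 (ENSG00000141682; chromosome 18, 59899948 to 59904306, plus strand) encodes NOXA, which binds MCL1 with preference. It had 1.99, 1.33 and 1.84 FPKM in siASGR1, against 3.77, 4.15 and 3.23 FPKM in siControl. No siASGR1 library came near the lowest siControl library, and the siASGR1 mean was 46.3% of siControl (log2 fold change -0.80, SE 0.12, adjusted p = 0.000946). These values rested on 55 to 83 rebuilt reads in siASGR1 and 118 to 163 in siControl. PMAIP1 was called lower in 16 of the 16 alternatives that tested it, with log2 fold changes from -1.12 to -0.60.

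BBC3 (ENSG00000105327; chromosome 19, 47220822 to 47232766, minus strand) encodes PUMA, which binds all anti-apoptotic members. It had 2.99, 3.69 and 2.94 FPKM in siASGR1, against 4.85, 4.21 and 4.14 FPKM in siControl. The groups did not overlap (log2 fold change -0.36, SE 0.09, adjusted p = 0.0108), but the call was lost with median-of-ratios scaling (-0.24, adjusted p = 0.0616) and quantile normalization (-0.19, adjusted p = 0.138). BCL2L11 (ENSG00000153094; chromosome 2, 111119378 to 111168447, plus strand) encodes BIM, an activator that is induced by FOXO factors in other cells. It had 3.4, 3.20 and 2.96 FPKM in siASGR1, against 4.51, 4.40 and 3.98 FPKM in siControl. Again no library crossed between groups (log2 fold change -0.34, SE 0.07, adjusted p = 0.00441), and quantile normalization ended the call (-0.16, adjusted p = 0.0861). Of its exon bases 10.9% overlap MIR4435-2HG on the opposite strand, which averaged 2.53 FPKM in siASGR1 and 3.88 FPKM in siControl. Since strand use in counting is not given in the sources used here, reads of these genes cannot be told apart, and the part of the overlap was not tested.

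BID (ENSG00000015475; chromosome 22, 17734138 to 17774770, minus strand) links death receptors to mitochondria, since caspase cleavage makes it active. It had 9.12, 10.01 and 8.59 FPKM in siASGR1, against 11.42, 11.99 and 11.31 FPKM in siControl. The siASGR1 mean was 79.8% of siControl with no overlap (log2 fold change -0.30, SE 0.06, adjusted p = 0.00434), and median-of-ratios scaling ended the call (-0.16, adjusted p = 0.0726). BAD (ENSG00000002330; chromosome 11, 64269830 to 64284704, minus strand) is held inactive by phosphorylation and binding to YWHA (14-3-3) proteins. It had 7.92, 9.0 and 8.09 FPKM in siASGR1, against 11.4, 11.2 and 9.18 FPKM in siControl, so that the highest siASGR1 and lowest siControl library nearly met. Its call was the least firm of the 7 (log2 fold change -0.31, SE 0.09, adjusted p = 0.0182). It was lost without siASGR1 replicate 1 (adjusted p = 0.0592), siASGR1 replicate 3 (0.0566), siControl replicate 1 (0.0612) or siControl replicate 2 (0.06), with no filter on low values (0.0555), and with median-of-ratios (0.152) or quantile scaling (0.103). GPR137 overlaps 23.7% of the exon bases of BAD on the opposite strand and averaged 5.10 FPKM in siASGR1 and 3.97 FPKM in siControl.

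**Figure D2:**
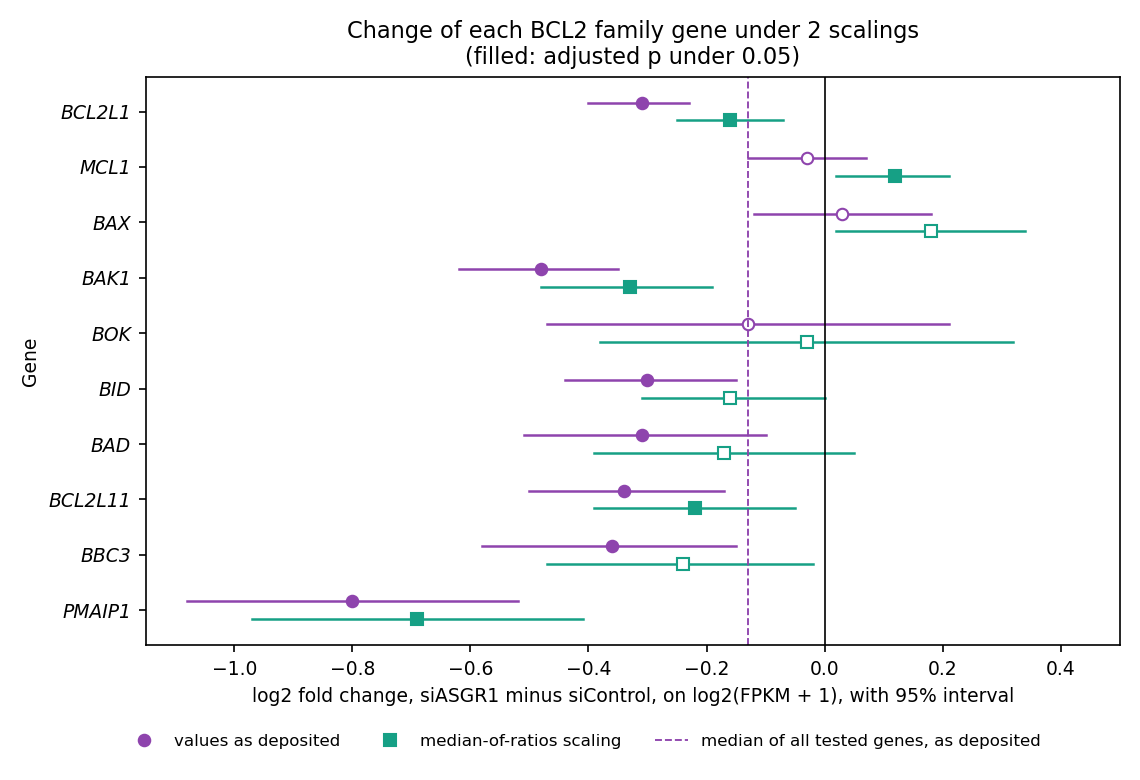
Log2 fold change of each member (siASGR1 minus siControl) with its 95% interval, from values as deposited (circles) and after median-of-ratios scaling (squares); filled symbols passed an adjusted p under 0.05 and the dashed line is the median of all tested genes, -0.13. PMAIP1 at -0.80 and BAK1 at -0.48 lay lowest on both scales, and MCL1 and BAX lay highest.

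Ratios of FPKM within a library do not depend on how that library is scaled. MCL1 over BCL2L1 was 1.01, 0.951 and 0.997 in siASGR1, against 0.774, 0.788 and 0.872 in siControl. All siASGR1 libraries lay above all siControl libraries (0.987 ± 0.032 in siASGR1 and 0.811 ± 0.053 in siControl). The summed FPKM of the 5 BH3-only genes over that of BCL2L1 and MCL1 was 0.267, 0.286 and 0.257 in siASGR1, against 0.335, 0.333 and 0.292 in siControl. BID and BAD made up most of the BH3-only sum (means 9.24 and 8.34 of 25.7 FPKM in siASGR1, 11.6 and 10.6 of 34.6 FPKM in siControl). The BH3-only ratio was lower in each siASGR1 library (0.270 ± 0.014 in siASGR1 and 0.320 ± 0.024 in siControl). The nearest libraries of the groups differed little. The same ratio for the 3 effectors overlapped, at 0.504, 0.580 and 0.519 in siASGR1, against 0.587, 0.548 and 0.551 in siControl. The BH3-only genes made up 15% ± 0.43 of the summed FPKM of the 10 members in siASGR1 and 17% ± 1.0 in siControl, and the anti-apoptotic pair 55.4% ± 1.6 in siASGR1 and 53.1% ± 1.1 in siControl. No p is given for these ratios, which describe chosen members. In siASGR1, replicate 2 held the highest value of 7 members and the lowest of 2, and in siControl, replicate 3 held the lowest of 8.

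**Figure D3:**
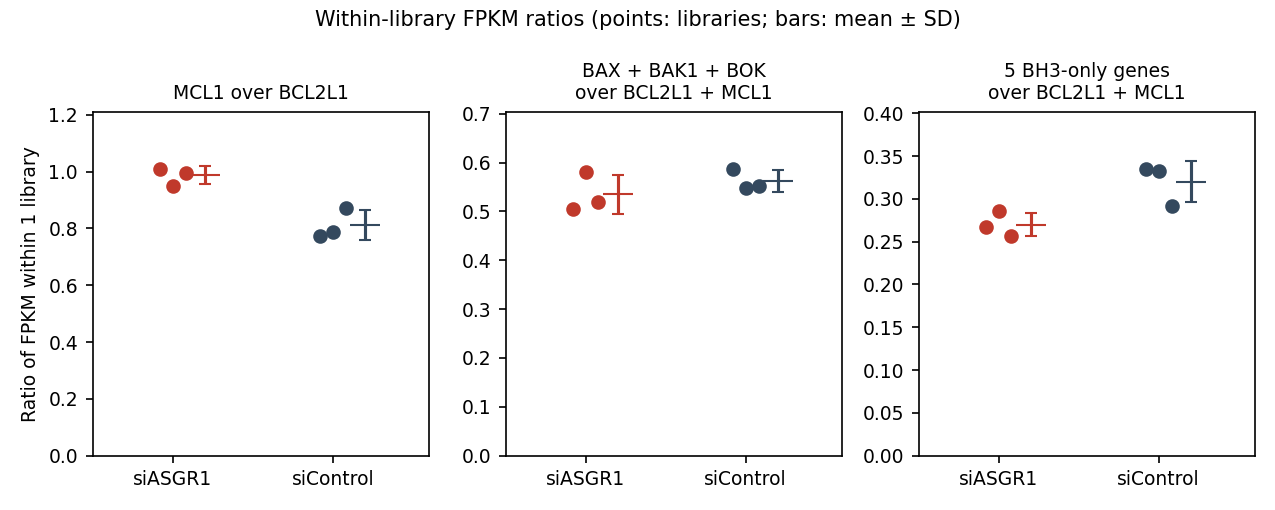
FPKM ratios within each library: MCL1 over BCL2L1, the 3 effectors over the anti-apoptotic pair, and the 5 BH3-only genes over the anti-apoptotic pair, in siASGR1 (red, left) and siControl (dark, right), with means ± SD (n = 3). The left panel is higher and the right panel lower in every siASGR1 library, while the middle panel overlaps.

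Start regions are shown for 3 of the BH3-only genes, from 250 bases before to 50 bases after the annotated start (RefSeq, GRCh38.p14). Whether these genes share a regulator was not tested. RefSeq windows were matched for 9 of the 10 members, MCL1 being the one without, and 15 windows were searched on both strands. The motifs searched were AP-1 (TGANTCA, bound by JUN), the CRE core (TGACG, bound by ATF4 and related factors), the CHOP-ATF4 element (TGATGNAA), E2F (TTTNNCGC), forkhead (GTAAACA) and the E-box (CACGTG). Capitals mark every match.
PMAIP1 (chr18:59899746-59900045, plus strand): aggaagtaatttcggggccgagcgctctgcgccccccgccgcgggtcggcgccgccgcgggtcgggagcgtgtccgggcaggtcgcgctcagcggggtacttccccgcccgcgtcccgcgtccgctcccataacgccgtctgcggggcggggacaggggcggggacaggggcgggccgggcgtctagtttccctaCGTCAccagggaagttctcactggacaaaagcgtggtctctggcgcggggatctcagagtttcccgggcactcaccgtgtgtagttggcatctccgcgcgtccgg
BBC3 (chr19:47232618-47232917, minus strand): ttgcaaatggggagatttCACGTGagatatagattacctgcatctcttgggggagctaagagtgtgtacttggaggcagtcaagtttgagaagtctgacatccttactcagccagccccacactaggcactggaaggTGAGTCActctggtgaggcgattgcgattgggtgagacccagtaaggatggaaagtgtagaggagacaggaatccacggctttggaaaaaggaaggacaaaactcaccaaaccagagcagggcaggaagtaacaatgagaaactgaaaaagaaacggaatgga
BCL2L11 (chr2:111120664-111120963, plus strand): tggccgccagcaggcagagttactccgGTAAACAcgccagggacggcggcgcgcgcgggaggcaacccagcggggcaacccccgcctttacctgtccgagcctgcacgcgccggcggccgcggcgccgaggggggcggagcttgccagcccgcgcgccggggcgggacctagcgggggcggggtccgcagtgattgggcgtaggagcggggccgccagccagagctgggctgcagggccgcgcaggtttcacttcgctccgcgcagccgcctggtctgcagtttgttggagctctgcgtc
The PMAIP1 window holds 1 CRE core, on the strand opposite to the gene and therefore printed as its complement, 55 bases before the start. The BBC3 window holds an E-box and 1 AP-1 match, and the BCL2L11 window 1 forkhead match. No motif was common to these 3 windows, and no 2 matches in them overlapped. Of all 35116 windows, 24.6% hold the CRE core, 7.71% AP-1, 3.42% forkhead, 7.26% the E-box, 6.89% E2F and 3.62% the CHOP-ATF4 element, which no member window held. The CRE core was also found in windows of BAD, BAX and BCL2L1, where it overlapped an E-box in BAX. E2F was found in BCL2L1, and the E-box also in BAX and BID. A match describes letters only and shows no binding.

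The other genes of the pathway came from 6 lists with 64 genes in all, of which 54 passed the filter, and 19 of these were called higher and 18 lower. These 37 of 54 stand beside 61.3% called among all tested genes. With median-of-ratios scaling 21 were called higher and 13 lower, 34 of 54, beside 58.8% of all tested genes. Of the transcription regulators of apoptosis genes, 6 of 9 tested genes fell and 1 rose (median log2 fold change -0.32). With median-of-ratios scaling 4 were called lower and 1 higher (median -0.20). Shares called lower among all tested genes were 40.4% as deposited and 28.9% with median-of-ratios scaling. JUN, an AP-1 subunit, fell to 33.6 ± 1.8 FPKM in siASGR1, against 101 ± 2.6 FPKM in siControl. DDIT3, which encodes the stress factor CHOP, fell to 15.7 ± 0.91 FPKM in siASGR1, against 29.1 ± 2.7 FPKM in siControl, and E2F1, a cell cycle factor, to 26.0 ± 0.56 FPKM in siASGR1, against 42.0 ± 3.9 FPKM in siControl. The adjusted p of these 3 genes was at most 0.000155. MARS overlaps 27.2% of the exon bases of DDIT3 on the opposite strand and averaged 33 FPKM in siASGR1 and 43.0 FPKM in siControl.

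Other BCL2 family genes went both ways: 3 of 7 tested rose and 3 fell, with a median of -0.09, which was 0.06 with median-of-ratios scaling. On both scales 6 of 7 were called, beside 61.3% of all tested genes as deposited and 58.8% with median-of-ratios scaling. The BH3-only gene BMF fell to 13.9 ± 0.16 FPKM in siASGR1, against 20.9 ± 1.9 FPKM in siControl. BIK, another BH3-only gene, was 0.333 ± 0.11 FPKM in siASGR1 and 1.48 ± 0.37 FPKM in siControl. It reached the filter of 1 FPKM only in siControl, which favoured its call as lower. BCL2L2, the gene of the survival protein BCL-W, fell to 4.62 ± 0.24 FPKM in siASGR1, against 6.09 ± 0.16 FPKM in siControl, and shares 19.4% of its exon bases with the read-through gene BCL2L2-PABPN1. BNIP3, a mitophagy receptor, rose to 87.0 ± 3.4 FPKM in siASGR1, against 73.9 ± 2.3 FPKM in siControl. The adjusted p of BMF, BCL2L2 and BNIP3 was at most 0.00277. The 6 genes under the filter were BCL2, BCL2A1, BCL2L10, BCL2L14, BCL2L15 and HRK. BCL2 itself was listed at 0 in all siASGR1 libraries and at 0, 0 and 0.01 FPKM in siControl, where a limit of 3 reads corresponds to 0.013 to 0.016 FPKM. It was named after its values were seen.

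Downstream of the mitochondrial pore, 4 of 13 genes of mitochondrial release and the apoptosome rose and 3 fell (median 0.03), that is 7 of 13 called beside 61.3% of all tested genes. With median-of-ratios scaling 5 were called higher and 3 lower (median 0.15). CASP6, an executioner caspase, rose 1.42-fold, and HTRA2, a mitochondrial protease, 1.46-fold. On the opposite strand AUP1 overlaps 16.1% of the exon bases of HTRA2 and averaged 32.2 FPKM in siASGR1 and 30.6 FPKM in siControl. LOXL3, on that strand too, overlaps 20.8% and averaged 0.567 FPKM in siASGR1 and 1.24 FPKM in siControl. The part of these overlaps in the HTRA2 values was not tested. CYCS, which encodes cytochrome c, fell to 60.2 ± 1.8 FPKM in siASGR1, against 86.3 ± 8.4 FPKM in siControl. The adjusted p of these 3 genes was at most 0.000866. CYCS and the YWHA genes are known to have processed pseudogenes, so reads could be split between copies and their values are uncertain.

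Of the inhibitors of apoptosis, which block caspases or promote cell survival, 4 of 5 tested genes fell and 0 rose (median -0.22). With median-of-ratios scaling only 1 of 5 was called lower. Among all tested genes 40.4% were called lower as deposited and 28.9% with median-of-ratios scaling. BIRC7, the one called on that scale, was 0.753 ± 0.14 FPKM in siASGR1 and 1.73 ± 0.17 FPKM in siControl. It too reached the filter only in siControl, which favoured its call as lower. BIRC2 fell to 18 ± 1.8 FPKM in siASGR1, against 22.7 ± 1.4 FPKM in siControl, a call lost with median-of-ratios scaling (adjusted p = 0.0724), and BIRC6 was 1.18-fold lower, a call lost there (0.189) and with quantile normalization (0.0757). BIRC5, which encodes survivin, was 24.6 ± 0.92 FPKM in siASGR1 and 27.1 ± 0.39 FPKM in siControl (adjusted p = 0.0263). That call was lost with a prior without trend (0.0535), with upper-quartile scaling (0.275) and without siASGR1 replicate 1 (0.0813) or 3 (0.0977) or siControl replicate 1 (0.0517), 2 (0.0725) or 3 (0.0562). With median-of-ratios scaling its sign turned (0.015, adjusted p = 0.791).

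Of the death receptor genes and their signalling partners, 5 of 11 tested rose and 2 fell (median 0.13). These 7 of 11 called stand beside 61.3% of all tested genes. The count of higher genes was 6 with median-of-ratios scaling or quantile normalization and 2 of 4 tested when at least 5 FPKM was required. It was 3 with no filter on low values, without siASGR1 replicate 2, without siASGR1 replicate 3 or without siControl replicate 1. TNFRSF1A, a TNF receptor, rose to 23.3 ± 0.27 FPKM in siASGR1, against 16.3 ± 1.1 FPKM in siControl. The TRAIL receptor gene TNFRSF10B fell 1.21-fold in mean FPKM while TNFRSF10D, which encodes a decoy receptor for the same ligand, rose 1.29-fold. CFLAR, whose product restrains CASP8, rose 1.47-fold, and the adjusted p of these 4 genes was at most 0.0097. FAS, below the filter, was at most 0.11 FPKM in siASGR1 and was listed at 0 in siControl. It too was named after its values were seen.

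Genes for turnover and cytosolic anchoring of members rose in 6 of 9 and fell in 0 (median 0.17). Among all tested genes 61.3% were called, 20.9% higher and 40.4% lower. With median-of-ratios scaling 6 were again called higher and 0 lower (median 0.33), beside 29.9% higher among all tested genes. On both scales the genes called were HUWE1 and the 14-3-3 genes of the list. The other turnover genes, USP9X, FBXW7 and MARCHF5, were called on neither scale. As deposited, their log2 fold changes were -0.07, -0.01 and -0.17 (limma adjusted p = 0.28, 0.935 and 0.121). They were named after their values were seen. HUWE1, a ubiquitin ligase that targets MCL1, rose to 56.8 ± 4.0 FPKM in siASGR1, against 40.4 ± 1.2 FPKM in siControl. The 14-3-3 genes YWHAB, YWHAQ and YWHAE, whose products bind phosphorylated BAD, rose 1.47-fold, 1.34-fold and 1.24-fold (adjusted p at most 0.000317 for these 4 genes). Without siControl replicate 2, 1 gene of this list was called lower: MARCHF5, a mitochondrial ubiquitin ligase named after its values were seen, which averaged 8.01 ± 0.13 FPKM in siASGR1 and 9.15 ± 1.1 FPKM in siControl over all libraries.

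**Figure D4:**
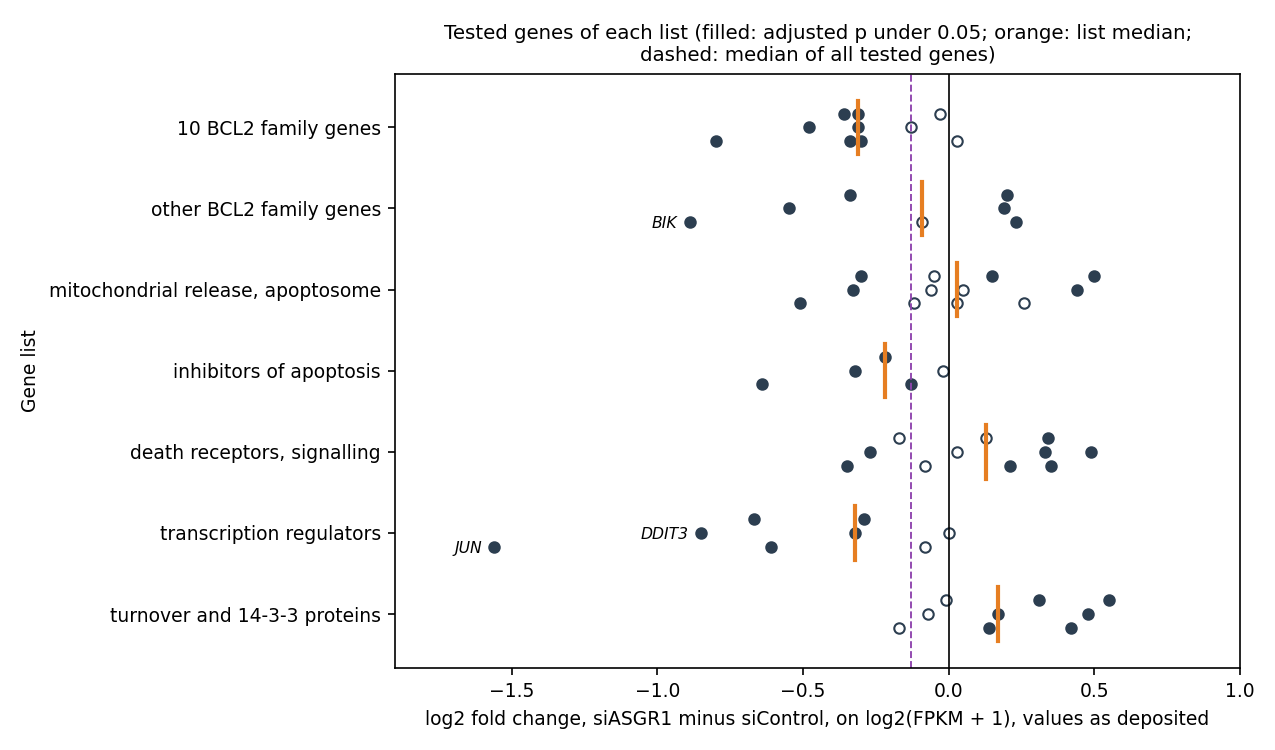
Log2 fold change (siASGR1 minus siControl) of the tested genes of the 10 members and of 6 pathway lists, with 2 genes not shown, from values as deposited; filled points passed an adjusted p under 0.05, orange bars are list medians and the dashed line is the median of all tested genes, -0.13. The members centre at -0.31, and JUN lies lowest of the points at -1.56.

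PMAIP1 had the largest change of the 10 members, so the genes with the most similar pattern over the 6 libraries were sought by Euclidean distance of mean-centred log2(FPKM + 1). The 3 nearest were VMAC (distance 0.13; 2.08 ± 0.31 FPKM in siASGR1 and 4.14 ± 0.26 FPKM in siControl), ZBTB49 (distance 0.13; 1.10 ± 0.25 FPKM in siASGR1 and 2.72 ± 0.32 FPKM in siControl) and DDX43 (distance 0.17; 1.82 ± 0.28 FPKM in siASGR1 and 4.25 ± 0.53 FPKM in siControl). The distances were taken over the same 6 libraries that gave the fold change of PMAIP1.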

How the data were processed

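RNA was sequenced from 6 Huh7 libraries. Per the submitters' processing notes, bcl2fastq 2.17.1.14, cutadapt 1.9.1, HISAT2 2.0.1 and hg19 were used; how reads were counted, with which annotation and strand setting, is not stated there. Values are FPKM that the authors deposited rounded to 2 decimals, per the file headers, although the series table is named as raw counts.

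Genes with at least 1 FPKM in at least 3 libraries were tested with limma 3.58.1 (R 4.3.3) on log2(FPKM + 1), with group as the only term and a prior trended on level, two-sided, with Benjamini-Hochberg adjustment. Fold changes on this scale understate changes of low genes. Depth was recovered from FPKM steps with exon lengths of GENCODE release 29: of values up to 20 reads, 93.7% to 94.5% were whole to within the rounding of the file, where 11.4% to 12.4% would be by chance; the depth was fitted on these same values. Symbols were matched for 51996 of 57905 IDs; coordinates are GRCh38, not the authors' build.

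The members and lists were chosen with earlier results of these data known. Named were ASGR1, all members, up to 4 called genes with the smallest p of each list, and the 3 genes nearest to the most changed member. Results for 2 of the genes so named, and for 1 motif, are not reported here; counts and medians of their lists include them. On simulated reads (12804 genes, 50 changed per size), the fit found 16% of genes changed 1.2-fold and 74% of those changed 1.5-fold. It found 92% of those changed 2-fold and 100% of those changed 4-fold, and 6% of its calls were false. In the data far more genes were called (61.3% of those tested), and no shift in scaling was simulated. These rates therefore cannot be taken as those of the calls made here. Alternatives covered scaling, pseudocount, filters, prior, replicate block, rebuilt reads (limma-voom), source files and leaving out each library. Plots used Python 3.11.15 and matplotlib 3.10.9.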

Additional observations from a re-analysis of the deposited data

How the results depend on the processing

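The number of members called (7) became 4 with quantile normalization and 4 of 6 tested when at least 5 FPKM was required, which left 4 members untested; it was 5 with median-of-ratios scaling and 6 to 7 when any 1 library was left out. BCL2L1, BAK1 and PMAIP1 were called lower in every alternative that tested them. Signs turned for MCL1 with median-of-ratios (0.118) and upper-quartile scaling (0.044), for BOK with quantile normalization (0.072) and for BIRC5 with median-of-ratios scaling (0.015). Leaving out 1 library gave from -0.056 to 0.003 for MCL1, from -0.026 to 0.084 for BAX and from -0.266 to 0.019 for BOK. The causes of these changes were not tested. Over all genes the split of 2839 higher and 5480 lower became 4056 and 3921 with median-of-ratios scaling, 3399 and 4689 with upper-quartile scaling and 3890 and 4015 with quantile normalization, and 2196 and 3382 among the 7829 genes left for testing when at least 5 FPKM was required. Same-numbered libraries did not deviate together (correlations of -0.0189 to 0.0125 for 3 pairs), and with the replicate block 7 members and 8064 genes were called. The alternative that joined the own files with median-of-ratios scaling was chosen after seeing the data; it called 5 members. BOK and PMAIP1 rest on the fewest reads of the 10 members, which limits the precision of their values.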
